A study of Homo sapiens with 32 samples.

Results

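Nearly all mitochondrial proteins are encoded in the nucleus, made in the cytosol and carried into the organelle by a set of membrane complexes. The genes of that import machinery were described here in 7 human lymphoblastoid cell lines, which are B cells immortalised with Epstein-Barr virus and kept as permanent lines. Members were the transcript clusters (the probes that an exon array assigns to a gene) with exactly 1 platform gene symbol of the form TIMM or TOMM followed by a digit, or the symbol PAM16, DNAJC19, GRPEL1, GRPEL2, SAMM50, MTX1, MTX2, PMPCA, PMPCB or TIMMDC1. They came to 24 genes of the 14405 clusters with 1 symbol, and of 21788 clusters in all. Of the 24 genes, 21 lay above background and were tested, among 14167 tested clusters (65.0%). Background was a mean log2 value of 6.40, set from 216 olfactory receptor clusters.

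Every culture, in every group, had received 200 µM 4-thiouridine for 2 h, a nucleoside that marks the RNA made during that time. No untreated culture was analysed here. Labelled (nascent) RNA and total RNA of the same culture were put on separate arrays, 16 of each, from 13 cultures. GM07029, GM10835 and GM12813 had 3 cultures each, titled biological replicates, those of GM12813 with technical duplicates. GM07019, GM12812, GM12814 and GM12815 had 1 culture each. Each line comes from 1 donor. In the labels the groups differ by line and RNA fraction, and no genotype or agent separates them. The series took the ratio of nascent to total RNA as its measure of mRNA half-life, with a high ratio read as fast replacement.

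All values below are log2. A ratio is nascent minus total, relative to the median cluster of its culture, and a level is relative to the median of its array. Both medians were taken over the tested clusters. Over all clusters, tested or not, the array medians ran from 6.74 to 6.95 in total RNA and from 7.58 to 7.92 in nascent RNA. The number of arrays limits the precision of each value. Of 9 B cell markers, 8 had a cluster with 1 symbol, and all 8 lay above background with mean total RNA values of 9.19 to 12.34. Markers of monocytes and granulocytes were above background in 0 of 6 cases, those of T and NK cells in 2 of 8 (NKG7 and PRF1), and those of fibroblasts and epithelia in 4 of 7 (COL1A1, COL1A2, KRT8 and KRT18). The highest mean total RNA value was 7.74 among T and NK cell markers. Among fibroblast and epithelial markers it was 10.4, within the range of the B cell markers.

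Precursors first meet the TOM complex of the outer membrane, where receptors such as TOMM22 pass them to the TOMM40 channel. Outer membrane barrel proteins are inserted by the sorting and assembly machinery, with which the metaxins MTX1 and MTX2 work. Small TIM chaperones in the intermembrane space escort carrier proteins to the TIM22 complex, whereas precursors with a cleavable presequence cross the inner membrane through the TIM23 complex, pulled by a motor around mitochondrial HSP70. The matrix processing peptidase, a dimer of PMPCA and PMPCB, then removes the presequence. TIMMDC1 carries a TIM name by sequence relation and is known as an assembly factor of respiratory complex I.

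Promoter sequence was available for 19 of the 21 tested genes (RefSeq, GRCh38.p14, from 250 bases before to 50 after the gene start). It is shown because most of these genes were higher together in 1 line, as described further on. The core CCGGAAG, read on both strands and known as a binding core of ETS family factors such as NRF2 (GABP), stood in 9 of 19 promoters (47.4%), against 10.7% of 27305 promoters and 18.8% of 7836 promoters of tested genes with 1 symbol. Those 9 were GRPEL2, MTX2, PMPCB, TIMM10, TIMM10B, TIMM29, TIMMDC1, TOMM22 and TOMM34. In the windows of 30 bases that follow, all upstream of the gene start and on the strand of the gene, capitals mark the core or its reverse complement.
PMPCB, chr7:103297405-103297434, plus strand: tcaggtcgcgaccCCGGAAGcacatccttc
TIMM10, chr11:57530755-57530784, minus strand: gaggcgggactttcctcCCGGAAGtaaccc
TIMM10, chr11:57530791-57530820, minus strand: ggtatttaattCCGGAAGcgagtttgaatc
TIMM29, chr19:10928711-10928740, plus strand: ttgggaagccaCTTCCGGtaaagttggcgc
TIMMDC1, chr3:119498460-119498489, plus strand: cccgccctcaaCCGGAAGtcttttgggctc
GRPEL2, chr5:149345401-149345430, plus strand: ccatcgggcaaCCGGAAGcatagcgttcct
PMPCB and TIMM10 carry a core that ends 11 and 7 bases before the annotated start, and GRPEL2 held it 3 times upstream of its start. The YY1 core AAGATGGC, which can overlap the ETS core by 3 letters, was found in the promoters of PMPCA and TIMM50 (5.42% of promoters of tested genes). The NRF1 core CGCATGCG was found for TOMM7 (3.64% of promoters of tested genes). No promoter of the 19 held more than 1 of the 3 cores. A match says only that these letters are present.

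Over the 7 lines, 7 of the 21 genes had a higher nascent/total ratio than the median cluster and 7 a lower one (limma's moderated test against 0, adjusted over all tested clusters at 0.05). The same calls covered 31.5% and 31.0% of all tested clusters, so neither share of the members stood far from the background. The median ratio of the 21 genes was 0.10, beside -0.01 over all clusters. All 21 genes were above background in total and in nascent RNA in each of the 7 lines. What the genes did not share was a direction: TIMM22, the pore of the carrier pathway, stood at 2.01, which is 4.02-fold, whereas TIMM50, the presequence receptor of the TIM23 complex, stood at -0.95. Without centring, the median cluster itself lay at 0.77 and that of the members at 0.87, 16 members were called higher and 0 lower, and MTX1 and TIMM44 turned from called lower to called higher. Directions here are therefore relative to other transcripts of the same culture.

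**Figure D1:**
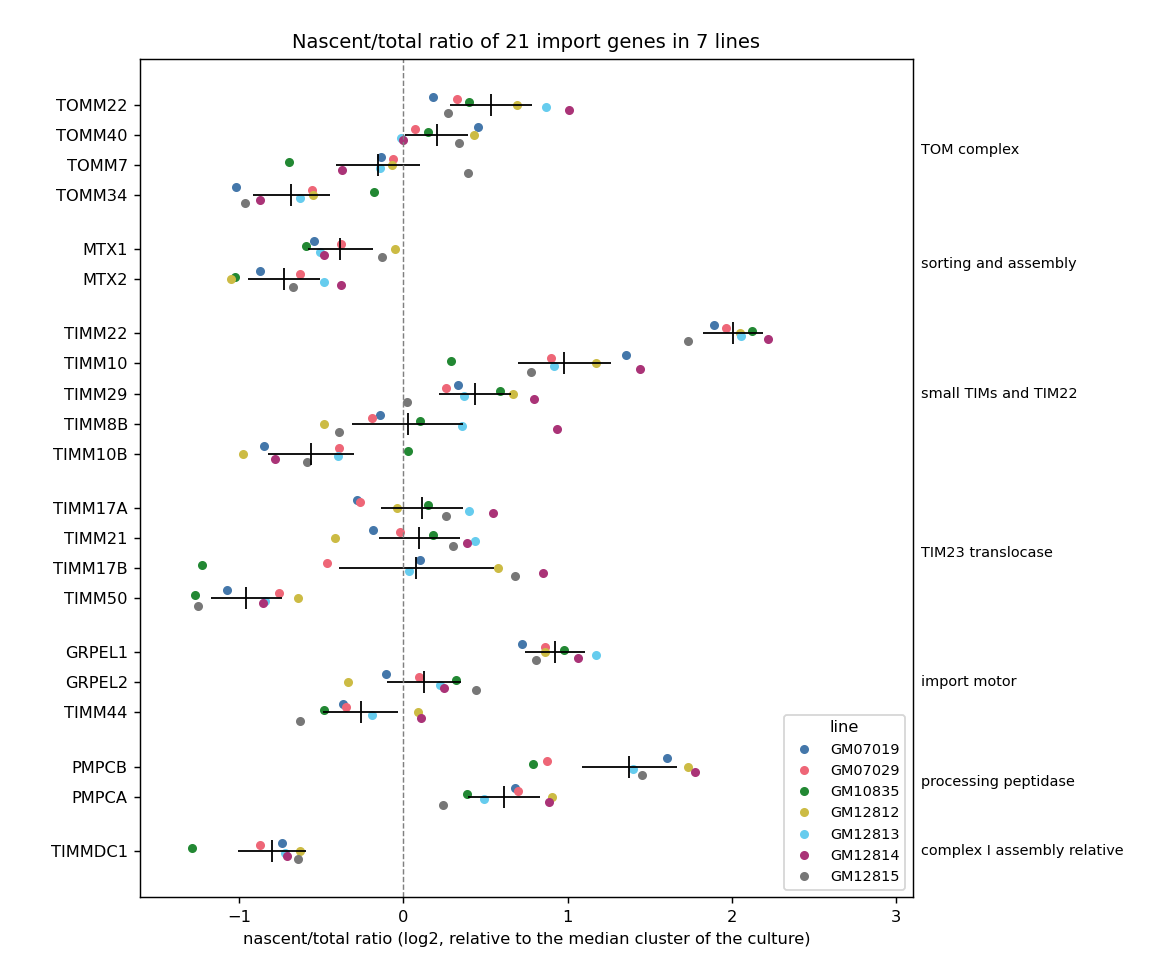
Nascent/total ratio (x axis, log2, relative to the median cluster of each culture) of the 21 tested import genes, ordered by role. Points are the 7 lines, the upright mark is their mean and the bar its 95% interval from the limma fit. TIMM22 lies at or above 1.73 in every line and TIMM50 at or below -0.64, whereas TIMM17B spreads from -1.23 to 0.85.

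Among the outer membrane genes, the receptor TOMM22 was the 1 of 4 called higher. Its ratio in GM07019, GM07029, GM10835, GM12812, GM12813, GM12814 and GM12815, the order used for all lines below, was 0.18, 0.33, 0.40, 0.69, 0.87, 1.01 and 0.27 (mean 0.53 ± 0.32, SD, n = 7 lines; adjusted p = 0.00169, limma). All 7 lines lay above 0, with GM12814 highest. TOMM34, a cytosolic cochaperone named with the TOM subunits, was called lower with -1.02, -0.55, -0.18, -0.55, -0.63, -0.87 and -0.96 (mean -0.68 ± 0.29; adjusted p = 0.000200). TOMM40, the import channel, had a mean of 0.20 ± 0.20 and missed the threshold (adjusted p = 0.0639). TOMM7, a small subunit that steadies the complex, had a mean of -0.15 ± 0.33 and was not called (adjusted p = 0.264). The TOMM7 values are uncertain: the 6 nearest named clusters by cluster number all lay on chromosome 5, whereas RefSeq places TOMM7 on chromosome 7. For the other 23 members, all 6 neighbours lay on the chromosome of the gene. Another cluster, named TOMM7 together with C4orf46 (mean log2 7.93), was not analysed here. Without TOMM7, 7 of 20 tested members were higher and 7 lower over the 7 lines. In the comparison of 3 lines below, 10 of those 20 differed in the ratio, 16 in total RNA and 13 in nascent RNA.

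Both metaxins of the sorting and assembly machinery were lower. MTX2 gave -0.87, -0.63, -1.02, -1.05, -0.48, -0.38 and -0.67 (mean -0.73 ± 0.26; adjusted p = 6.75e-05). MTX1, its partner, lay closer to the median cluster, with -0.55, -0.38, -0.59, -0.05, -0.51, -0.48 and -0.13 (mean -0.38 ± 0.21; adjusted p = 0.00338). Neither gene had a line above 0.

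The carrier pathway held the highest ratio of the set and a low one side by side. TIMM22 gave 1.89, 1.97, 2.12, 2.05, 2.06, 2.22 and 1.73 (mean 2.01 ± 0.16; adjusted p = 4.33e-08). Its 7 lines spanned less than 0.5, and GM12815 was lowest. TIMM10, a small TIM chaperone, gave 1.36, 0.90, 0.29, 1.17, 0.92, 1.44 and 0.78 (mean 0.98 ± 0.39; adjusted p = 4.82e-05), with GM10835 lowest. TIMM29, a subunit of the TIM22 complex, was higher too, from 0.03 in GM12815 to 0.80 in GM12814 (mean 0.43 ± 0.27; adjusted p = 0.00273). TIMM10B, a small TIM bound to that complex, was lower, with -0.85, -0.39, 0.03, -0.97, -0.40, -0.78 and -0.58 (mean -0.56 ± 0.34; adjusted p = 0.00156), and only GM10835 lay above 0. TIMM8B, another small TIM, had both signs, with -0.14, -0.19, 0.10, -0.48, 0.36, 0.93 and -0.39 (mean 0.03 ± 0.49; adjusted p = 0.895).

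In the TIM23 translocase, TIMM50 was the 1 of 4 genes called. It gave -1.08, -0.76, -1.27, -0.64, -0.84, -0.85 and -1.25 (mean -0.95 ± 0.25; adjusted p = 7.44e-06), below 0 in all 7 lines. TIMM21, a subunit that couples the complex to the outer membrane and the respiratory chain, gave -0.18, -0.02, 0.18, -0.42, 0.44, 0.39 and 0.30 (mean 0.10 ± 0.32; adjusted p = 0.461). TIMM17A and TIMM17B are alternative subunits of the channel. TIMM17A averaged 0.11 ± 0.32 (adjusted p = 0.412). TIMM17B averaged 0.08 ± 0.73 (adjusted p = 0.766), with 0.10, -0.46, -1.23, 0.58, 0.03, 0.85 and 0.68. Its lines lay on both sides of the median cluster, and its SD was the widest of the 21. The uncentred total RNA value of TIMM17B was 6.15 in GM12815 and 6.29 in GM12814, near the total background of 5.97. In GM10835 it was 8.54. How far nearness to background shaped the SD was not tested.

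GRPEL1, the nucleotide exchange factor of mitochondrial HSP70 in the import motor, gave 0.72, 0.86, 0.98, 0.86, 1.17, 1.07 and 0.81 (mean 0.92 ± 0.16; adjusted p = 2.60e-06). Its paralog GRPEL2 averaged 0.13 ± 0.27 and was not called (adjusted p = 0.299). The difference between the paralogs was not tested. TIMM44, which tethers the motor to the channel, was just past the threshold on the low side (-0.26 ± 0.28; adjusted p = 0.0485); the call was lost when GM07019, GM07029, GM10835, GM12813 or GM12815 was left out (adjusted p of 0.0767 to 0.123).

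Both peptidase subunits were higher. PMPCB, the catalytic subunit, gave 1.61, 0.87, 0.79, 1.74, 1.40, 1.77 and 1.46 (mean 1.38 ± 0.40; adjusted p = 4.23e-06). PMPCA, the substrate-binding subunit, gave 0.68, 0.70, 0.39, 0.91, 0.49, 0.89 and 0.24 (mean 0.61 ± 0.25; adjusted p = 0.000241). All lines lay above 0 for both. TIMMDC1 was lower, with -0.74, -0.87, -1.29, -0.63, -0.72, -0.71 and -0.64 (mean -0.80 ± 0.23; adjusted p = 2.29e-05), and GM10835 lay furthest from 0. Of the 21 genes, TIMM22 and PMPCB exceeded a 2-fold ratio on the high side and 0 did so on the low side. Of all 14167 tested clusters, 1301 were called at least 2-fold higher and 840 at least 2-fold lower.

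The 3 members that were not above background were not tested. DNAJC19, a J-protein of the motor, had uncentred log2 values, as means of the 7 lines, of 6.00 in total and 6.20 in nascent RNA. It passed the total background in 3 of 7 lines and the nascent background in 0. TOMM20L, a relative of the receptor TOMM20, had 5.46 and 5.81. TIMM8A, the gene of deafness-dystonia syndrome, had 5.38 in total and 6.96 in nascent RNA: its nascent value passed the nascent background of 6.84 in 6 of 7 lines, and its total value passed the total background of 5.97 in 0 of 7. A further 11 import genes, among them TIMM23, TOMM20, TOMM70, SAMM50 and PAM16, stood only in clusters with several symbols and were not analysed here.

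The 3 lines with replicate cultures were compared next, which asks whether the lines differ beyond the spread between their own cultures. In total RNA, 17 of the 21 genes differed between GM07029, GM10835 and GM12813 (limma's moderated F, adjusted over all tested clusters), against 61.1% of all clusters. In nascent RNA 13 differed, against 55.9%. GM10835 had the highest mean in 16 of the 17 genes called in total RNA and in all 13 called in nascent RNA. How often it was highest among all called clusters was not computed, and shares of all clusters stand beside the contrasts below. In bulk RNA a higher level in all cells and a larger share of cells with a high level cannot be told apart.

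Against GM07029, GM10835 had 15 of 21 genes higher in total RNA and 0 lower, where 24.2% of all clusters were higher and 25.8% lower. The median difference was 0.49 for the members and 0.02 for all clusters. In nascent RNA 14 were higher and 0 lower, against 22.8% and 29.6% of all clusters, with medians of 0.32 and -0.09. Both fractions were higher for 11 genes, which held for 15.4% of all clusters: TOMM22, TIMM10, TIMM22, TIMM29, TIMM17B, TIMM50, GRPEL1, GRPEL2, TIMM44, PMPCB and TIMMDC1. In this contrast MTX1, MTX2, PMPCA and TOMM7 were called in total RNA only, and TIMM10B, TIMM17A and TOMM34 in nascent RNA only. Contrasts were called on their own adjusted p-values, whether or not the F test passed. By the F test GRPEL2 was called in neither fraction, and TIMM10B was not called in nascent RNA (adjusted p = 0.0511). Total and nascent RNA came from the same cultures.

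GM12813 against GM10835 showed 12 genes lower and 3 higher in total RNA (21.4% and 22.9% of all clusters), the 3 being TIMM10B, TOMM34 and TOMM40. Of these, TIMM10B and TOMM40 did not pass the F test in total RNA (adjusted p = 0.0559 and 0.0676). The median difference was -0.45, beside 0.08 for all clusters. In nascent RNA 7 were lower and 0 higher (16.9% and 25.4%). Both contrasts share the GM10835 cultures. GM12813 and GM07029 were closer to each other: in total RNA 3 genes were higher in GM12813 (MTX1, TIMM50 and TOMM34) and 2 lower (TIMM17A and TIMM21), against 15.9% and 16.3% of all clusters. In nascent RNA GRPEL1 and TIMM17B were higher in GM12813 and 0 genes lower, against 10.1% and 10.4%.

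In total RNA, 10 genes were higher in GM10835 than in each of the other lines (15.7% of all clusters), namely TOMM22, MTX2, TIMM10, TIMM17B, TIMM50, GRPEL1, TIMM44, PMPCA, PMPCB and TIMMDC1. They span every role, from the outer membrane receptor to the peptidase. In nascent RNA 6 genes were (13.8%): TIMM10, TIMM22, TIMM29, TIMM17A, GRPEL1 and TIMM44. All 3 GM10835 cultures lay above all 6 other cultures for 13 genes in total RNA (18.6% of all clusters) and for 11 in nascent RNA (18.2%). Of the 9 genes with the ETS core in their promoter, 7 were higher in GM10835 than in GM07029 in total RNA, and so were 7 of the 10 whose promoter lacked it.

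Over all clusters, tested or not, the GM10835 arrays also had the highest medians in nascent RNA, 7.89 to 7.92. Those of GM07029 were 7.72 to 7.83 and those of GM12813 7.78 to 7.84. The centring took out the median of the tested clusters, which is a different value. The median total RNA level of the 8 B cell markers was 2.32 in GM10835, 2.84 in GM07029 and 3.11 in GM12813, and in GM10835 against GM07029 1 of the 8 was higher, 4 were lower and 3 were not called (24.2% and 25.8% of all clusters were higher and lower). Of the 2 T and NK cell markers above background 1 was higher in GM10835, and of the 4 fibroblast and epithelial markers 0 differed. Their part in the result was not tested.

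With 1 value per line, GM10835 had the highest total RNA level of the 7 lines in 15 of the 21 genes, where it was highest in 21.2% of all clusters. The lowest line was GM07029 in 9 genes (19.0% of all clusters) and GM12814 in 6 (7.23%). In nascent RNA GM10835 was highest in 9 genes (10.6% of all clusters) and GM12812, with a single culture, in 8 (22.1%). The ratio was highest in GM12814, also a single culture, in 10 genes (10.2%). These orders carry no test.

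**Figure D2:**
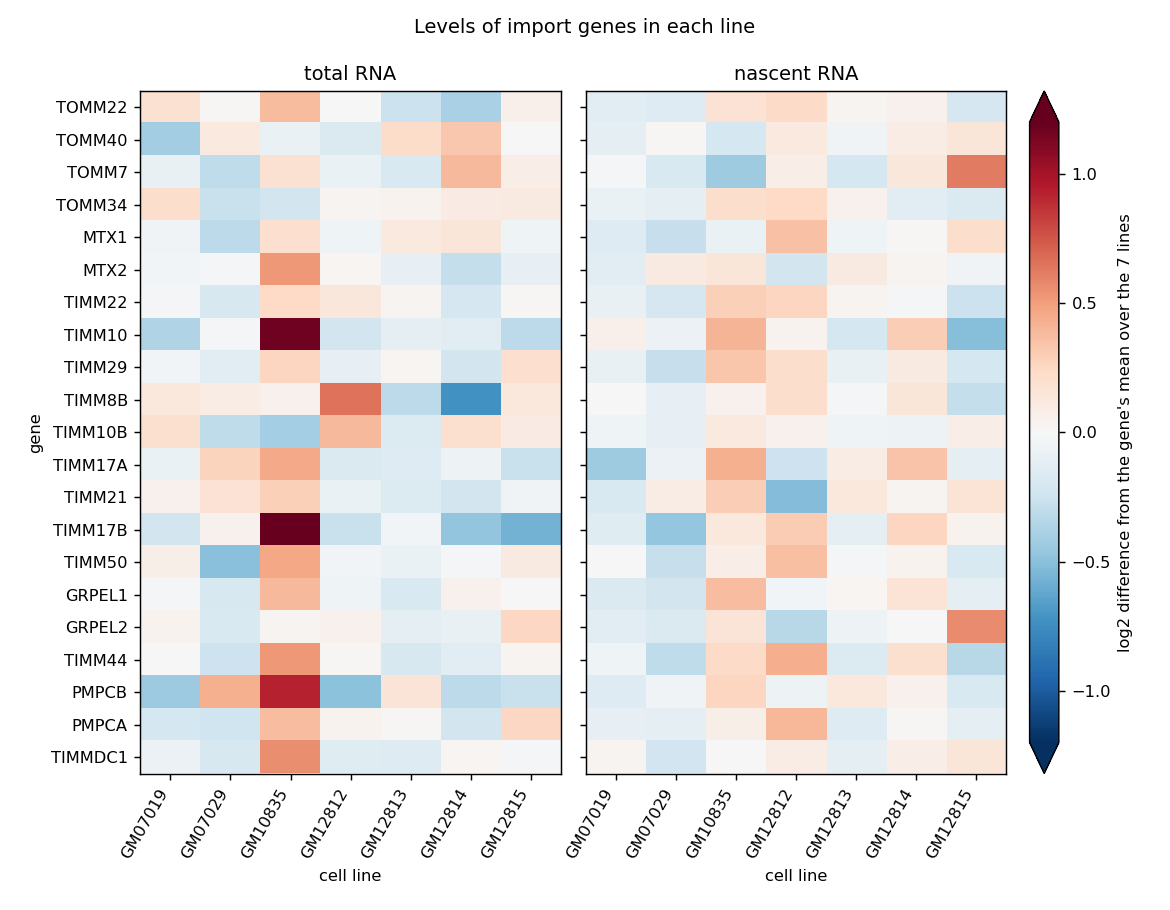
Level of the 21 import genes in total RNA (left) and nascent RNA (right) in each of the 7 lines, as the log2 difference from the mean of the gene over the lines, red above and blue below. The GM10835 column is red in most rows of total RNA, where it is the highest line for 15 genes, and less so in nascent RNA, where it is highest for 9.

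Among the TIM23 genes, TIMM17B had the widest total RNA range of the set. Its level was -1.21, -0.82 and -0.78 in the cultures of GM07029, 0.43, 0.60 and 0.52 in GM10835 and -0.93, -1.06 and -1.05 in GM12813 (range of line means 1.53; adjusted p = 2.20e-06, moderated F). In nascent RNA it was -1.53, -1.50 and -1.52, then -0.86, -0.88 and -1.03, then -1.01, -1.36 and -1.15 (range 0.59; adjusted p = 0.00154). The GM10835 cultures stood apart from all others in total RNA and overlapped those of GM12813 in nascent RNA. TIMM50 followed, with total RNA levels of 1.56, 1.64 and 1.70 in GM07029, 2.64, 2.66 and 2.50 in GM10835 and 2.09, 1.94 and 2.13 in GM12813 (range 0.97; adjusted p = 6.33e-06). No cultures of different lines overlapped. In nascent RNA its range was 0.35 (adjusted p = 0.0105). TIMM17A was also highest in GM10835 in both fractions, with ranges of 0.61 in total and 0.50 in nascent RNA, and TIMM21 in total RNA (range 0.45).

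TIMM10 in the carrier pathway moved in both fractions. Total RNA levels were -0.90, -0.74 and -0.73 in GM07029, 0.47, 0.29 and 0.45 in GM10835 and -0.81, -1.03 and -0.76 in GM12813 (range 1.27; adjusted p = 1.93e-06). Nascent RNA levels were -0.02, -0.08 and 0.10, then 0.60, 0.42 and 0.41, then -0.17, -0.11 and -0.14 (range 0.62; adjusted p = 0.000118), with no overlap between lines. TIMM29 differed more in nascent than in total RNA: its nascent levels were -0.51, -0.41 and -0.41 in GM07029, 0.28, 0.26 and -0.05 in GM10835 and -0.36, -0.28 and -0.14 in GM12813 (range 0.61; adjusted p = 0.000832), while its total range was 0.39 (adjusted p = 0.0322). GM10835 was again above every other culture in nascent RNA. The total RNA call was lost without GM07029 replicate 1, GM10835 replicate 1 or GM10835 replicate 3 (adjusted p of 0.0784 to 0.108). TIMM22 had ranges of 0.43 in total and 0.48 in nascent RNA, also with GM10835 highest. TIMM8B passed the threshold in none of the measures (adjusted p of 0.239 in total RNA, 0.389 in nascent RNA and 0.376 for the ratio), and its 3 GM10835 cultures spread from -0.14 to 0.80 in total RNA; it was called in total RNA without GM10835 replicate 2 (adjusted p = 0.0495) and in nascent RNA without GM10835 replicate 1 (adjusted p = 0.0189).

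In the import motor, TIMM44 gave total RNA levels of 0.50, 0.72 and 0.74 in GM07029, 1.46, 1.45 and 1.37 in GM10835 and 0.81, 0.59 and 0.73 in GM12813 (range 0.77; adjusted p = 3.33e-05). The GM10835 cultures lay above all others by more than the spread within any line. GRPEL1 gave nascent RNA levels of 0.96, 1.10 and 0.91 in GM07029, 1.64, 1.53 and 1.58 in GM10835 and 1.21, 1.22 and 1.26 in GM12813 (range 0.59; adjusted p = 4.85e-05), and its total range was close to that, 0.58 (adjusted p = 0.000735). The 3 lines did not overlap in nascent RNA. GRPEL2 was called in neither fraction by the F test (adjusted p = 0.0941 in total and 0.0812 in nascent RNA), but in nascent RNA it was called without GM07029 replicate 1 or 2 (adjusted p = 0.0267 and 0.0324).

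The peptidase subunit PMPCB gave total RNA levels of 0.22, -0.14 and -0.03 in GM07029, 0.42, 0.43 and 0.67 in GM10835 and 0.00, -0.21 and -0.56 in GM12813 (range 0.77; adjusted p = 0.00189). GM10835 lay above both, and the other lines overlapped. PMPCA had a total range of 0.60 (adjusted p = 0.00137). TIMMDC1 gave 1.44, 1.12 and 1.23 in GM07029, 2.02, 1.96 and 2.04 in GM10835 and 1.35, 1.27 and 1.27 in GM12813 (range 0.74; adjusted p = 3.17e-05). Its GM10835 cultures were again clear of the rest. In the outer membrane, TOMM22 and MTX1 had total ranges of 0.63 and 0.51 with GM10835 highest, and TOMM34 a range of 0.31 with GM12813 highest, a call lost without GM12813 replicate 2 or 3 (adjusted p = 0.0661 and 0.0551). TOMM40 was called in none of the 3 measures by the F test, though without GM07029 replicate 1 it was in nascent RNA (adjusted p = 0.0164).

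**Figure D3:**
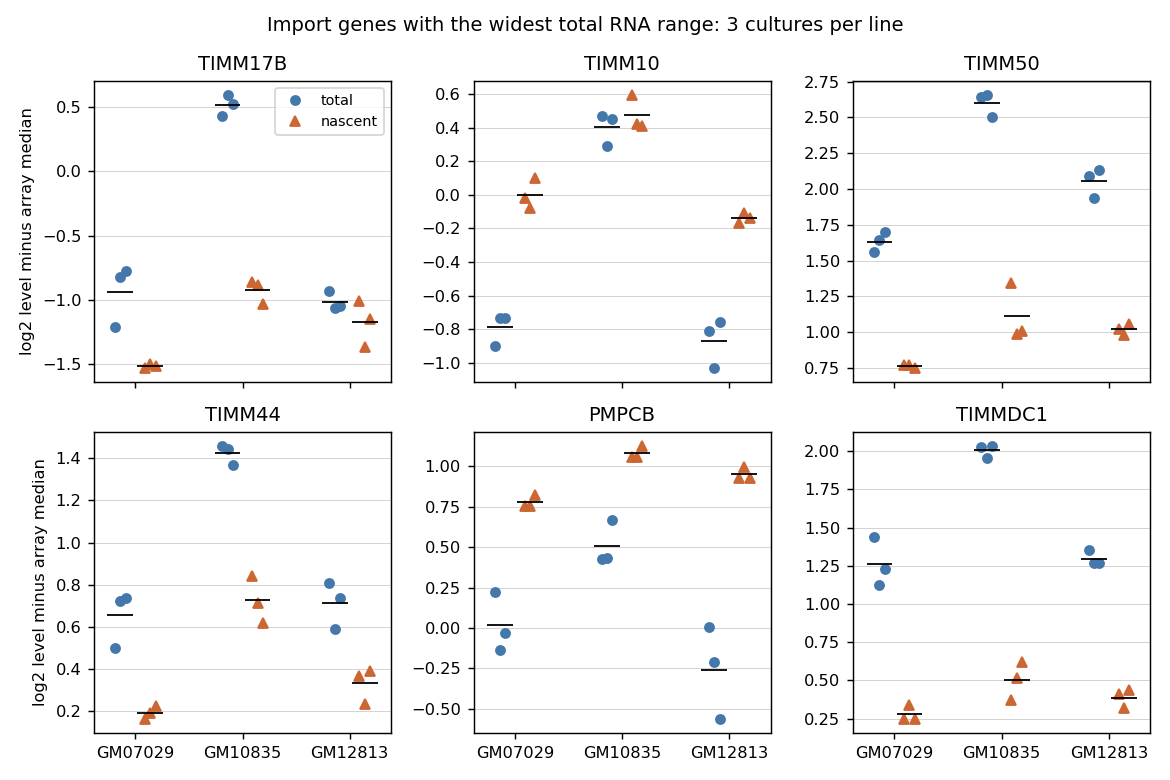
Level (y axis, log2 minus the array median of the tested clusters) of the 6 import genes with the widest total RNA range in each of the 3 cultures of GM07029, GM10835 and GM12813. Circles are total RNA, triangles nascent RNA and lines the means. In total RNA the GM10835 cultures lie above all 6 others in each panel, and for TIMM50 total RNA the 3 lines do not overlap.

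The ratio itself differed between the 3 lines for 10 of the 21 genes, against 28.2% of all clusters: TOMM22, TOMM34, MTX2, TIMM10, TIMM10B, TIMM17A, TIMM17B, TIMM50, PMPCB and TIMMDC1. GM12813 had the highest mean in 7 of the 10 and GM10835 the lowest in 6. The line order among all clusters called in the ratio was not computed. GM12813 exceeded GM10835 in 7 genes (TOMM22, MTX2, TIMM10, TIMM17B, TIMM50, PMPCB and TIMMDC1) and lay below it in TIMM10B and TOMM34 (13.4% and 11.0% of all clusters). GM10835 against GM07029 gave TIMM10B higher and TIMM10, TIMM17B and TIMM50 lower (9.09% and 6.71%). GM12813 against GM07029 gave TIMM17A and TOMM22 higher and 0 genes lower (6.66% and 1.24%). The count of 10 rested on single cultures: it was 6 without GM10835 replicate 1, 4 without GM10835 replicate 3, 6 without GM12813 replicate 2 and 5 without GM12813 replicate 3. With the first array of each culture only it was 6, and with no filter on low clusters 3. The TOMM34 call was lost without GM07029 replicate 3 or any culture of GM10835 or GM12813 (adjusted p of 0.0551 to 0.134, moderated F). That of TOMM22 was lost without GM07029 replicate 2 or 3, GM10835 replicate 3, or GM12813 replicate 2 or 3 (0.0527 to 0.146). TIMM50 lost its call without GM10835 replicate 2 or 3 (0.0929 and 0.0747), and TIMM10B without GM10835 replicate 1 (0.0523).

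TIMM17B had the widest ratio range, with -0.09, -0.52 and -0.78 in GM07029, -1.12, -1.23 and -1.33 in GM10835 and 0.06, -0.10 and 0.14 in GM12813 (range 1.26; adjusted p = 0.00120). GM10835 lay below all other cultures. Uncentred nascent RNA of TIMM17B averaged 7.30 in GM07029, 8.14 in GM10835 and 7.70 in GM12813, against a nascent background of 6.84. Its uncentred total RNA averaged 7.00, 8.54 and 6.87, against a total background of 5.97. The part of nearness to background in the total, nascent and ratio ranges of TIMM17B was not tested. TIMM17A, its alternative in the channel, differed in another order: -0.22, -0.09 and -0.48 in GM07029, -0.02, 0.34 and 0.14 in GM10835 and 0.22, 0.31 and 0.67 in GM12813 (range 0.66; adjusted p = 0.0183). Here GM07029 was lowest, and GM10835 and GM12813 overlapped. TIMM10 gave 1.11, 0.81 and 0.79, then 0.30, 0.38 and 0.19, then 0.78, 1.13 and 0.85 (range 0.63; adjusted p = 0.00859). Its GM10835 cultures were below all others, while GM07029 and GM12813 overlapped. The TIMM17B call held with any single culture left out. That of TIMM10 was lost without GM10835 replicate 3 (adjusted p = 0.0519), and that of TIMM17A without GM07029 replicate 3 (adjusted p = 0.0554).

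PMPCB gave ratios of 0.76, 1.04 and 0.82 in GM07029, 0.81, 0.87 and 0.68 in GM10835 and 1.06, 1.41 and 1.72 in GM12813 (range 0.61; adjusted p = 0.0248). The GM12813 cultures were above all others, and the call was lost without GM10835 replicate 3, GM12813 replicate 2 or GM12813 replicate 3 (adjusted p = 0.0654, 0.0805 and 0.113). TIMMDC1 gave -0.96, -0.63 and -1.02, then -1.48, -1.19 and -1.19, then -0.81, -0.74 and -0.60 (range 0.57; adjusted p = 0.0190), with GM10835 below both; without GM10835 replicate 1 or GM12813 replicate 3 the adjusted p was 0.0786 and 0.0531. MTX2 was near the threshold: -0.50, -0.47 and -0.92 in GM07029, -1.25, -0.91 and -0.91 in GM10835 and -0.62, -0.54 and -0.28 in GM12813 (range 0.55; adjusted p = 0.0488). It kept its call only without GM07029 replicate 3, and with any of the other 8 cultures left out the adjusted p was 0.0508 to 0.177. Its nascent RNA barely varied (range 0.04; adjusted p = 0.831), while its total RNA had a range of 0.62 (adjusted p = 0.000567).

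The range of line means was larger in total than in nascent RNA for 16 of the 21 genes, as for 68.1% of all clusters, and for 9 of the 10 genes called in the ratio, as for 79.5% of the 4000 clusters called in it. The exception among the 10 was TOMM34. The ratio contains both values, so this describes where the difference lies and is no separate test. Among the genes whose ratio was not called, GRPEL1, TIMM22, TIMM29, TIMM44 and PMPCA were called in both fractions. The GRPEL1 ratio was called without GM07029 replicate 2 (adjusted p = 0.0197, moderated F). Those of TIMM21 and TOMM7 were called without GM07029 replicate 1 (0.00849 and 0.00883). The nascent call of PMPCA (adjusted p = 0.0469) was lost with any of 7 of the 9 cultures left out, all but GM07029 replicates 1 and 3 (adjusted p of 0.0565 to 0.167). Of the genes called in all 3 measures, TIMMDC1 had a nascent call (adjusted p = 0.0470) that held only without GM10835 replicate 1 and was otherwise lost (adjusted p of 0.0508 to 0.152). The nascent call of TOMM22 was lost without replicate 1 or 2 of GM07029 or of GM10835 (adjusted p of 0.05015 to 0.0644, moderated F). That of TOMM34 was lost without GM07029 replicate 2 or GM10835 replicate 1 (0.0626 and 0.0707). TOMM7 lost its total RNA call without GM10835 replicate 1 or 3 (0.0902 and 0.0706). For TIMM22 the ratio differed little between lines (range 0.16; adjusted p = 0.674), although total and nascent RNA both differed. Between GM10835 and GM07029 the interval of its ratio difference ran from -0.17 to 0.48.

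**Figure D4:**
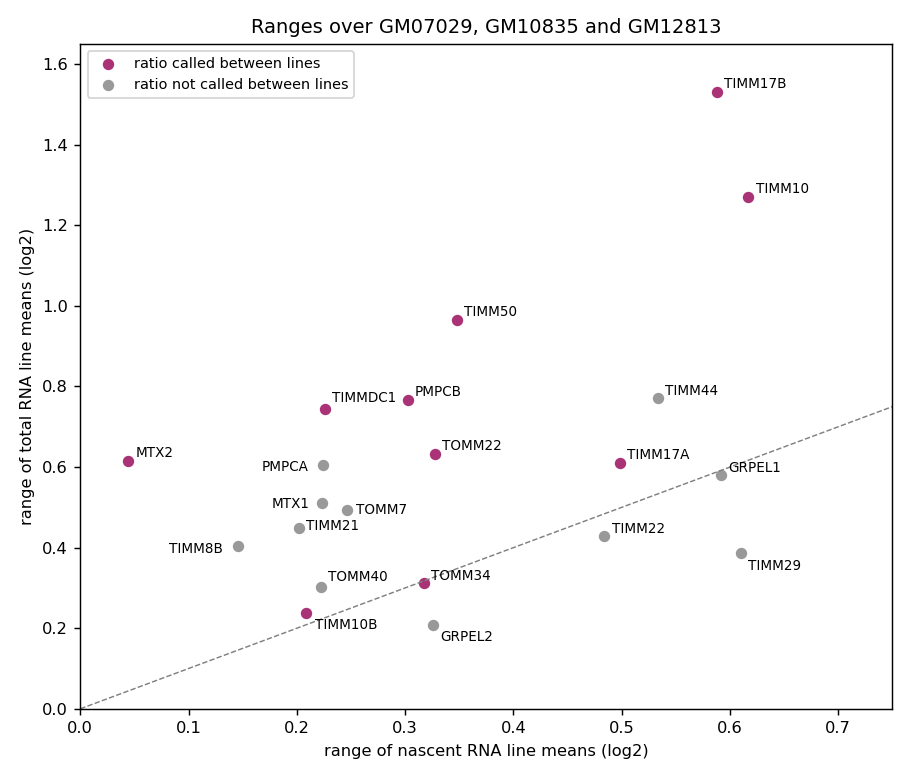
Range of the 3 line means (GM07029, GM10835, GM12813; log2) in nascent RNA (x axis) against total RNA (y axis) for the 21 import genes, with equal ranges on the dashed line. Of the 21 points 16 lie above the line, and 9 of the 10 genes called in the ratio (purple) do.

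Other genes of mitochondrial import and protein quality control were taken from a list of 30, of which 23 had a cluster with 1 symbol and 22 were tested. Of these 7 had a higher ratio than the median cluster and 15 a lower one over the 7 lines (31.5% and 31.0% of all clusters), with a median of -0.56. The highest were CLPX, the unfoldase of the matrix protease CLPXP (1.36 ± 0.19, SD, n = 7; adjusted p = 2.81e-07, limma), the cytosolic chaperone HSP90AA1 (1.03 ± 0.81; adjusted p = 0.00272) and AFG3L2 of the inner membrane m-AAA protease (0.93 ± 0.19; adjusted p = 4.19e-06). The lowest were APOOL of the MICOS complex (-1.86 ± 0.28; adjusted p = 1.17e-07), the intermediate peptidase MIPEP (-1.52 ± 0.23; adjusted p = 1.87e-07) and IMMT, the core of MICOS (-1.09 ± 0.13; adjusted p = 5.29e-07).

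Between the 3 lines, 6 of these 22 genes differed in the ratio, 14 in total RNA and 12 in nascent RNA (28.2%, 61.1% and 55.9% of all clusters). GM10835 against GM07029 gave 10 higher and 1 lower in total RNA (24.2% and 25.8% of all clusters), and 4 higher and 7 lower in nascent RNA (22.8% and 29.6%), the latter close to the background. By rule the widest called ratio ranges were those of HSP90AA1 (1.69), APOO of MICOS (1.55) and MIPEP (0.58). APOO was below the nascent background of 6.84 in all 7 lines, so its nascent values cannot show a difference and its ratio follows its total RNA (range 1.62, GM10835 highest). HSP90AA1 had a total range of 1.43 and a nascent range of 0.28 (adjusted p = 0.0917).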

How the data were processed

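The authors deposited log2 values per transcript cluster of human exon arrays, 1 column per array. Affymetrix Power Tools and hg18 are listed in the submitters' processing notes; how probes were summarised, and whether nascent and total arrays were normalized jointly, is not given in the sources used here. Per the labels' protocols, 4-thiouridine-labelled RNA was separated from total RNA and ribosomal RNA was reduced. Technical duplicates were averaged. Clusters whose mean over 32 arrays exceeded the 95th percentile of the olfactory receptor means were tested. Ratios (nascent minus total log2 value) and levels were centred on the median of the culture or array over the tested clusters. limma 3.58.1 (R 4.3.3) tested 7 line values against 0 and 9 cultures by a moderated F with 3 pairwise contrasts (lmFit, eBayes with a trend, two-sided); p-values were adjusted by Benjamini and Hochberg over 14167 clusters within each contrast. The titles call the cultures of these lines biological replicates. The tests between lines set line differences against the spread between those cultures. The ratio tests were also run on simulated data, drawn independently for each cluster and without batches. Such data cannot show how often calls are false in these arrays.

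No member had over 1 cluster with a single symbol. TIMM8B, TIMM10B, TOMM7 and TOMM20L also stood in a cluster with several symbols (mean log2 8.45, 7.43, 7.93 and 7.23), which was not analysed here. All 24 symbols matched RefSeq. Values of every line or culture were printed, by rule, for the 6 highest and 6 lowest called ratios, the 3 nearest 0, and the widest called ranges (6 ratio, 6 total, 4 nascent). Members and lists were chosen with earlier results of these data known. Alternatives were the filter, normalization, centring, signal trend, duplicates, variance prior, replicate block and each line or culture left out; pairwise counts were added after their values were seen. Members whose RefSeq annotation names pseudogenes (among them TOMM22, TOMM40, GRPEL1, GRPEL2 and TIMM8B) may share probe signal with them. Replicate numbers did not pair cultures.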

Additional observations from a re-analysis of the deposited data

Results flagged for a closer look

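The TIMMDC1 ratio in GM10835, -1.29, stood apart from the other 6 lines. Its gap to the nearest line (GM07029, -0.87) was 0.634 of the whole range, past Dixon's 95% limit for 7 values. About 1 in 20 groups passes this limit by chance, and this was the single case among the 21 genes tested. In the 3 GM10835 cultures the ratio was -1.48, -1.19 and -1.19.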

How the results depend on the processing

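Of the single-gene results under the alternatives, 290 of 315 kept direction and call for the ratio over 7 lines, 285 of 336 for the ratio between 3 lines, 319 of 336 for total RNA and 288 of 336 for nascent RNA. Without centring, 16 members were called higher and 0 lower over 7 lines, and means changed sign for MTX1 (0.39), MTX2 (0.0445), TIMM10B (0.21), TIMM44 (0.51), TOMM34 (0.0920) and TOMM7 (0.62); the median of all clusters then lies at 0.77. Leaving out each line gave 7 higher and 6 to 7 lower. The ratio count between 3 lines (10) was 6 with the first arrays only and 3 with no filter, and 4 to 11 with each culture left out. The count higher in GM12813 than in GM10835 (7) was 4 with the first arrays only and 3 with no filter, and 3 to 9 with each culture left out. The nascent count lower in GM12813 than in GM10835 (7) was 15 without centring, 11 with quantile normalization, and 5 to 8 with each culture left out. The cause was not tested. Total RNA counts stayed within 15 to 18 of 17 (any line), 11 to 15 of 15 (GM10835 above GM07029) and 11 to 13 of 12 (GM12813 below GM10835) with each culture left out.

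The replicate block gave 8 genes for the ratio, 17 for total and 11 for nascent RNA. The numbers do not pair the cultures: the correlation of same-numbered cultures exceeded 0.1 in 2 of 9 pairs for the ratio, 2 of 9 for total and 3 of 9 for nascent RNA. For cultures of different lines with different numbers it did so in 9, 6 and 10 of 18 pairs. Whether cultures of different lines were paired in another way was not tested. With 13 cultures and line as a random block, 7 genes were higher and 7 lower. The alternative of averaging a gene's clusters was not run, since no member had over 1 with a single symbol. The technical duplicates differed by a median of 0.137 in total and 0.076 in nascent RNA, and by up to 0.777 and 0.611 for a single member, as large as many of the ranges reported.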
